A study of Homo sapiens with 6 samples.

Results

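The untransfected HEK293T cells of a microRNA overexpression study are described here by the levels of their own transcripts. They make up 2 of 6 arrays in all and were taken by their titles as the 2 control replicates. Each array carries RNA of 1 sample, and the study's design text calls the replicates biological duplicates. The other 4 arrays, 2 per dose, are from HEK293T cells given the cloned miR-23a, miR-27a and miR-24-2 cluster by transfection in 1 well of a 6-well plate, at 2 µg for one pair and at 4 µg for the other. The labels give the control as untransfected, so its arrays describe cells that met neither a vector nor the transfection, and no mock-transfected sample is used here. All 3 groups share the cell line. Of 18774 genes with a probe that names 1 gene, 7379 were detected on both control arrays, which is 39.3% of the genes measured. For 10766 genes (57.3%) no probe was detected on either array. The other 629 genes were in between, with a probe detected on 1 array or on different arrays by different probes.

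HEK293T is a line grown from human embryonic kidney tissue. It carries the early region of an adenovirus, which made the parent line immortal, and in addition the large T antigen of SV40, a viral protein that binds p53 and the retinoblastoma family. The line is used to produce viruses and proteins and as a blank background in which receptors and channels are studied after their genes are introduced, so which of these genes the cells already transcribe is of practical use. A cell type is recognised by a small set of lineage genes, while the machinery of translation, splicing, respiration and protein turnover is transcribed in nearly every cell.

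Levels are given as the mean bead intensity of a probe, without normalization and with no background subtracted, first for control replicate 1 and then for control replicate 2, in intensity units. A probe counts as detected where the array software's detection p-value, which in that software compares a probe with negative control beads, is under 0.01. On the control arrays that threshold fell at a signal of 221.8 and 222.8, and the median undetected probe gave 155 and 152, so a value near 225 is barely above background. Each detected gene is represented by its detected probe with the highest mean and has a rank by that mean, from 1 to 7379. Probes differ in how well they bind, so a rank orders probe signals and not numbers of transcripts. A probe that is not detected shows that no signal above background was read there, and a transcript at a low level can give the same result.

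Control replicate 1 had 9558 detected probes and control replicate 2 had 9721, against 48701 on the array. The median number of beads per probe was 40 on both, and the median standard error over beads was 4.24% and 4.22% of the signal. Over the detected genes, which are not independent replicates, replicate 2 was brighter by a median ratio of 1.07. After this offset was removed the duplicates differed by a median of 0.10 on the log2 scale, and 95% of genes lay within 0.32. No detected gene (0 of 7379) differed by over 2-fold on this scale. Background is left in these signals, which shrinks ratios, most of all for dim genes. With the authors' processed values, where background is subtracted, the median difference was 0.14, and no count over 2-fold is given for them. The 5 genes that differed most were SLC2A6, a hexose transporter, at 1068 and 583, EIF3A, a subunit of an initiation factor, at 4096 and 2333, the histone gene H4C3 at 4606 and 9118, OSBPL8, a lipid transfer protein, at 762 and 457 and SH3KBP1, an endocytic adaptor, at 3960.4 and 2392. No level was tested, and having 2 arrays limits how precisely each is known. The RNA came from whole cultures, so fewer cells with a transcript and less of it per cell cannot be told apart.

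**Figure D1:**
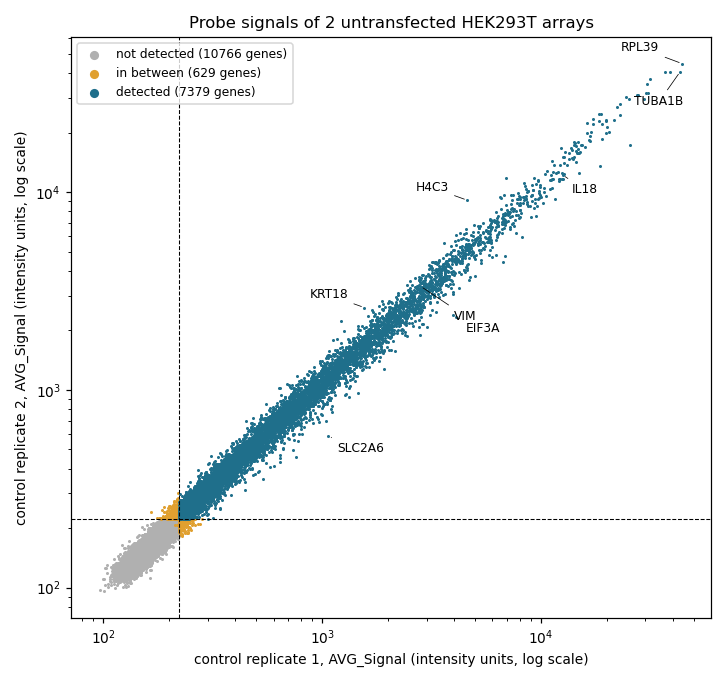
Each point is 1 of 18774 genes, with its probe signal on control replicate 1 (horizontal) and control replicate 2 (vertical) in intensity units on log axes. Colours separate the 7379 detected, 629 in-between and 10766 undetected genes, and the dashed lines mark the lowest detected signals, 221.8 and 222.8. The points lie close to the diagonal from background up to RPL39 and TUBA1B.

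The highest signals of the untransfected cells came from the translation machinery, the cytoskeleton, redox enzymes and energy supply. RPL39, a protein of the large ribosomal subunit, ranked first with 44146 and 44775. TUBA1B, an alpha tubulin, followed with 43254 and 40703. RPL6, another protein of the large subunit, gave 38804 and 40546 and EEF1A1, the factor that brings aminoacyl-tRNA to the ribosome, gave 36732 and 40671. Both arrays placed these probes in the same narrow range at the top of the scale. OAZ1, an inhibitor of polyamine synthesis, gave 31344 and 37463, PRDX1, a peroxiredoxin that removes peroxides, gave 30416 and 35156, and SLC25A5, the carrier that exchanges ADP and ATP across the inner mitochondrial membrane, gave 30877 and 31776. The others in the first 30 included ACTB, cytoplasmic actin, at 29481 and 29475, ATP5F1B, the catalytic subunit of ATP synthase, at 27415 and 31102, and TXN, thioredoxin, at 22232 and 27090.2. YWHAQ, an adaptor for phosphorylated proteins, gave 21465 and 23256, TUBA1C, an alpha tubulin close in sequence to TUBA1B, 19789.8 and 22936, and CD81, a tetraspanin of the cell surface, 20065 and 21359. HSPA1B, an inducible chaperone, was among them at 20376 and 20252, while the probe of HSPA1A, which encodes a nearly identical protein, was not detected at 204 and 196. EIF3E, a subunit of an initiation factor, differed most between the duplicates within the first 30, at 25412 and 17296. CLEC2D, a lectin-like ligand of natural killer cell receptors, completed the non-ribosomal members at 19842 and 19934. It was detected by 2 of its 3 probes.

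Ribosomal protein genes filled 16 of the first 30 ranks and 30 of the first 100. Besides RPL39 and RPL6 the first 30 held RPS10 at 30119.6 and 31959, RPS19 at 27836 and 31048, RPL5 at 25337 and 29760.3, RPL35A at 24528 and 30321 and RPS3 at 22881 and 27813. RPS28, RPL27, RPL10, RPS25, RPS15A, RPL38, RPL9, RPL22 and RPS6 were the remaining ones, with means of duplicates from 19237 for RPS6 to 23748 for RPS28. RPS3 and RPL10 were each detected by 1 of 2 probes. In all, 61 of 66 ribosomal protein genes measured were detected, and the median of those 61 stood within the first 1.41% of ranks. Not detected were RPL10L and RPL3L, copies used in testis and muscle, and also RPS26 at 213 and 216, RPL32 at 205 and 221 and RPL36A at 191 and 193. The last 3 are parts of every cytosolic ribosome, so a probe can stay below detection for a gene that cells use. Ribosomal protein genes have many near-identical processed copies in the genome, and a probe can read those too.

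Transcripts of ribosomal protein genes are known to begin with a tract of pyrimidines through which their translation is controlled. The stretches around the RefSeq starts (build GRCh38.p14) of 6 of the brightest ribosomal protein genes are shown because they carry that tract. Each line runs 5′ to 3′ on the strand of the gene, from 20 bases before the annotated start, and capitals mark the run of C and T from its first C onward.
RPL39, chrX:119791606-119791650, minus strand: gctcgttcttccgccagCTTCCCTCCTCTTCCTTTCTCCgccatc
RPS10, chr6:34426045-34426089, minus strand: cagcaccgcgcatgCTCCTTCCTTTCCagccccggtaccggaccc
RPS19, chr19:41860235-41860279, plus strand: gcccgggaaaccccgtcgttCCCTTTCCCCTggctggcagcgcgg
RPL35A, chr3:197950170-197950214, plus strand: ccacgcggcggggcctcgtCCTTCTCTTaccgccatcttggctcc
RPS3, chr11:75399498-75399542, plus strand: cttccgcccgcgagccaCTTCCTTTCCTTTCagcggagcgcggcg
RPS28, chr19:8321476-8321520, plus strand: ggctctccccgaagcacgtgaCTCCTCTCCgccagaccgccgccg
Among detected ribosomal protein genes with an entry in the promoter table, 46 of 51 (90.2%) had such a run of at least 5 bases, beginning with C, on the strand of the gene within a window of 5 bases before to 16 bases after a listed start. Over all 13852 protein-coding genes with an entry the share was 36.2%, and over the other detected genes it was 37.1%. RPL6 had none in the window of either of its 2 listed starts. A run is a description of letters and does not show that a tract is used.

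Other families of constitutive machinery were detected at 76.5% to 100% of their measured members, against 39.3% of all genes. All 7 measured subunits of the cytosolic chaperonin, which folds actin and tubulin, and all 11 measured SR splicing factors were detected. So were 31 of 34 aminoacyl-tRNA synthetases, 70 of 77 mitochondrial ribosomal proteins, 8 of 9 minichromosome maintenance proteins, 16 of 18 ATP synthase subunits, 30 of 34 subunits of respiratory complex I, 47 of 54 translation initiation factors, 19 of 22 nucleoporins, 17 of 22 heterogeneous nuclear ribonucleoproteins and 26 of 34 proteasome subunits. Families were defined by symbol, so the initiation factor count includes the binding proteins EIF4EBP1 and EIF4EBP3 and the pseudogene EIF3IP1, all undetected. The ribonucleoprotein count likewise includes the undetected pseudogene HNRNPKP3. Core members were undetected too, among them EIF4E, HNRNPK, HNRNPU, NUP98, ATP5MC3 and the proteasome subunits PSMD3, PSMD11 and PSMD12. Whether their probes missed transcripts that were present was not tested. The detected ATP synthase genes had a median rank within the first 4.55% and the SR factors within the first 7.25%. SRSF6, an SR factor, gave 7431 and 9658, CCT2, a chaperonin subunit, 7503 and 6789, and MCM7, a helicase subunit of replication origins, 9683 and 11362. Of 452 zinc finger genes named ZNF, 192 (42.5%) were detected, close to the 39.3% of all genes, and of 318 solute carriers 110 (34.6%).

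Several large families of specialised genes had few detected members, where 39.3% of all genes were detected. Of 358 olfactory receptor genes, which belong to the nasal epithelium, 6 (1.68%) were detected and 10 were in between. The brightest of the 6, OR4D11, averaged 260.2 and the dimmest, OR6C70, 225.1. These values give a measure of how bright a probe can be for a gene that this cell type is not known to use, and 866 of the 7379 detected genes had a mean no higher than 260.2. Of 75 keratin-associated proteins 1 was detected, of 26 defensins 1, of 17 type I interferons 0 and of 25 taste receptors 0. Of 48 keratins 6 were detected, of 38 interleukins 2 and of 35 chemokines of the CC and CXC types 2. IL18, a cytokine of the interleukin 1 family that is stored as an inactive precursor, stood at rank 72 with 12549.7 and 12247. The other detected interleukin, IL21, was the last of all detected genes at 222 and 224.

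**Figure D2:**
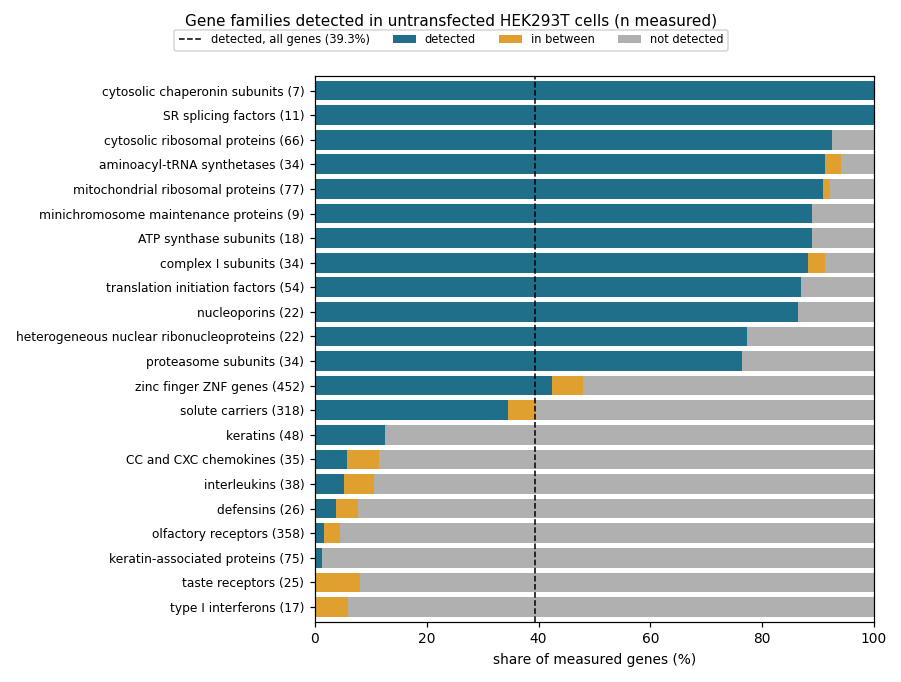
Bars give, for 22 gene families defined by their symbols, the share of measured genes that were detected on both control arrays, in between or not detected, in percent. The number measured stands after each name, and the dashed line marks the 39.3% of all genes. The machinery families lie at 76.5% or more and the olfactory receptors at 1.68%.

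A few genes with high ranks are not part of this machinery and were picked out after their values were seen. Besides CLEC2D and IL18 they were ZNF486, a zinc finger gene, at 14757 and 15827, AMY1C, a salivary amylase gene with near-identical copies, at 9457 and 11066, DNAJC28, a DnaJ family protein, at 14432 and 14297, and DNM1P46, a pseudogene, at 11036 and 11555. All 6 lay within the first 100 ranks. Each was detected on all 4 transfected arrays as well. Whether another transcript binds these probes was not tested.

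The labelled tissue of origin was set against genes of the kidney first. Of 22 measured markers of podocytes and tubule segments 2 were detected, 1 was in between and 19 were not detected, so 9.09% against 39.3% of all genes. Those detected were ATP6V1B1, a proton pump subunit of intercalated cells, at 294 and 307, and SCNN1A, a subunit of the epithelial sodium channel, at 255 and 229.8, both close to the threshold. Not detected were NPHS1 and SYNPO of podocytes, the uptake receptors LRP2 and CUBN and the transporters SLC34A1, SLC5A2, SLC22A6 and SLC22A8 of the proximal tubule, the water channels AQP1 and AQP2, the salt transporters SLC12A1 and SLC12A3, the vasopressin receptor AVPR2, and CDH16, the kidney-specific cadherin. With a detection p-value under 0.05 in place of 0.01 the count of 2 became 6, and with one under 0.001 it became 1.

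Transcription factors of the developing kidney were detected at about the rate of all genes, with 8 of 20 detected and 12 not. IRX3, a factor of nephron patterning, gave 2497 and 2174, FOXD1, a factor of the renal stroma, 1526 and 1571, SIX4, a homeobox partner of EYA1, 959 and 1061, and TFAP2A, a factor of surface ectoderm and neural crest, 716 and 786. These 4 stood well above background on both arrays. EYA1 gave 321 and 402, MEIS2 averaged 335, and MEIS1 gave 256 and 269 and WT1, a factor mutated in Wilms tumours, 255 and 269. PAX2, PAX8, LHX1, SIX2, OSR1, SALL1, GATA3, EMX2, TCF21, CITED1, POU3F3 and TFAP2B were not detected.

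Because the adrenal gland lies beside the kidney, its genes were set beside these. The share detected was 8.33% of adrenocortical genes and 23.5% of chromaffin and sympathoadrenal genes, against 39.3% of all genes. Of 12 genes of adrenocortical steroid synthesis 1 was detected, CYB5A, a cytochrome of general use, at 1759 and 2024, and 11 were not, among them NR5A1, STAR, CYP11A1, CYP17A1 and MC2R. Of 17 genes of chromaffin and sympathoadrenal cells 4 were detected. ISL1, a LIM homeobox factor, gave 583 and 559 and GATA2 gave 269.8 and 272, whereas INSM1 at 224 and 238 and RET at 230.0 and 230.2 lay at the threshold. The enzymes of catecholamine synthesis TH, DBH and PNMT, the granule proteins CHGA and CHGB, the transporters SLC18A1, SLC18A2 and SLC6A2 and the factor HAND2 were not detected, and DDC and PHOX2A were in between. With a detection p-value under 0.001 the count of 4 became 2.

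Neuronal genes were mixed. Of 28 measured, 9 were detected, 1 was in between and 18 were not, a share of 32.1% against 39.3% of all genes. UCHL1, a deubiquitinase abundant in neurons, gave 2879.7 and 3077, DPYSL3, a protein of growth cones, 1398 and 1343, and TUBB3, the neuronal beta tubulin, 911 and 831. PRPH, peripherin, an intermediate filament of peripheral neurons, gave 606 and 617, ENO2, the neuronal enolase, 535 and 644, and NEFL, the light neurofilament, 404 and 508. These 6 had means above 260.2, the highest olfactory receptor value. MAP2 at 266 and 244, NCAM1 at 252 and 232 and NEFM, the medium neurofilament, at 236 and 227 had means under that value. NEFH, INA, MAPT, STMN2, GAP43, DCX, L1CAM, SNAP25, SYT1, SYP, RBFOX3, DLG4 and the RNA-binding proteins ELAVL2, ELAVL3 and ELAVL4 were not detected. Of 9 glial genes 2 were detected, MBP at 850.2 and 842 by 1 of its 2 probes and SLC1A3, a glutamate transporter, at 639 and 660.3, while GFAP, S100B, OLIG1, OLIG2, SOX10 and AQP4 were not. With a detection p-value under 0.05 the glial count became 4.

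Among epithelial genes, simple keratins and junction plaque genes were detected and several classical adhesion genes were not. Of 24 measured, 11 were detected (45.8%, against 39.3% of all genes) and 13 were not. The keratins of simple epithelia KRT18 and KRT8 gave 1559 and 2611 and 1413 and 1769, and KRT18 was the less even of them between the arrays. TJP1, a scaffold of tight junctions, gave 1206 and 1349, JUP, plakoglobin, 723 and 749, KRT19 591 and 663, CLDN1, a claudin, 547 and 578, DSP, desmoplakin, 492 and 595 and PKP2, plakophilin, 345 and 362. CLDN7 at 292 and 319, ELF3 at 245 and 288 and MUC1 at 229 and 244 were closer to the threshold. CDH1, which encodes E-cadherin, was not detected, nor were EPCAM, CLDN3, CLDN4, OCLN, the splicing regulators ESRP1 and ESRP2, the factors GRHL2 and OVOL1, and the keratins KRT5, KRT7, KRT14 and KRT20.

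Mesenchymal genes were detected in 13 of 25 cases, against 39.3% of all genes. VIM, vimentin, gave 2814 and 3351, CDH2, N-cadherin, 3325 and 2472 and ACTA2, smooth muscle actin, 2410.4 and 2227. COL5A1, a fibrillar collagen, gave 935 and 966 and TAGLN, an actin-binding protein, 379 and 413. Most other members were dim, among them COL6A1 at 307 and 345, COL3A1 at 334 and 317, COL1A1 at 280.3 and 303 and ZEB2 at 289 and 289. S100A4, SPARC, LUM and TWIST1 were also detected. TWIST1 at 224 and 226 and SPARC at 257 and 244 were detected on 0 of 4 transfected arrays. Of the 13 detected, 10 had means above 260.2, the highest olfactory receptor value. By the same probe, 9 of the 13 were detected on all 4 transfected arrays. FN1, COL1A2, DCN, POSTN, FAP, THY1, CDH11, the receptors PDGFRA and PDGFRB and the factors ZEB1, SNAI1 and SNAI2 were not detected. The cultures thus held transcripts of N-cadherin, vimentin and simple keratins, and whether the same cells carried them was not measured.

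Genes of the cell surface and cytoskeleton were detected in 16 of 23 cases (69.6%), against 39.3% of all genes. S100A10, a calcium-binding partner of annexin, gave 9339.9 and 11829, EZR, ezrin, 6623 and 7419.9, and CD9, a tetraspanin, 4486 and 4821. CAVIN1, a coat protein of caveolae, gave 4225 and 4471, but CAV1, the main caveolin, was not detected and CAV2 gave 638 and 577. ANXA1 at 2959 and 3478, ACTN1, alpha actinin, at 2328 and 1950.5, CD44, a hyaluronan receptor, at 2045 and 1834 and MSN, moesin, at 1662 and 2028 were well above background. LGALS3, CD24, S100A6, MYL9, MYLK and CNN1 were not detected. Of 26 integrin genes 7 were detected (26.9%). ITGB1, the beta chain shared by most matrix receptors, gave 7121 and 7743, ITGB5 1677 and 1949, ITGAE 670.0 and 778, ITGAV 504 and 577, ITGA2B 487 and 472, ITGA5, the fibronectin receptor chain, 488 and 435 and ITGAX 239 and 248. ITGB1 was detected by 2 of its 4 probes. ITGA1, ITGA2, ITGA3, ITGA4, ITGA6, ITGB2, ITGB3 and ITGB4 were among the 19 not detected.

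**Figure D3:**
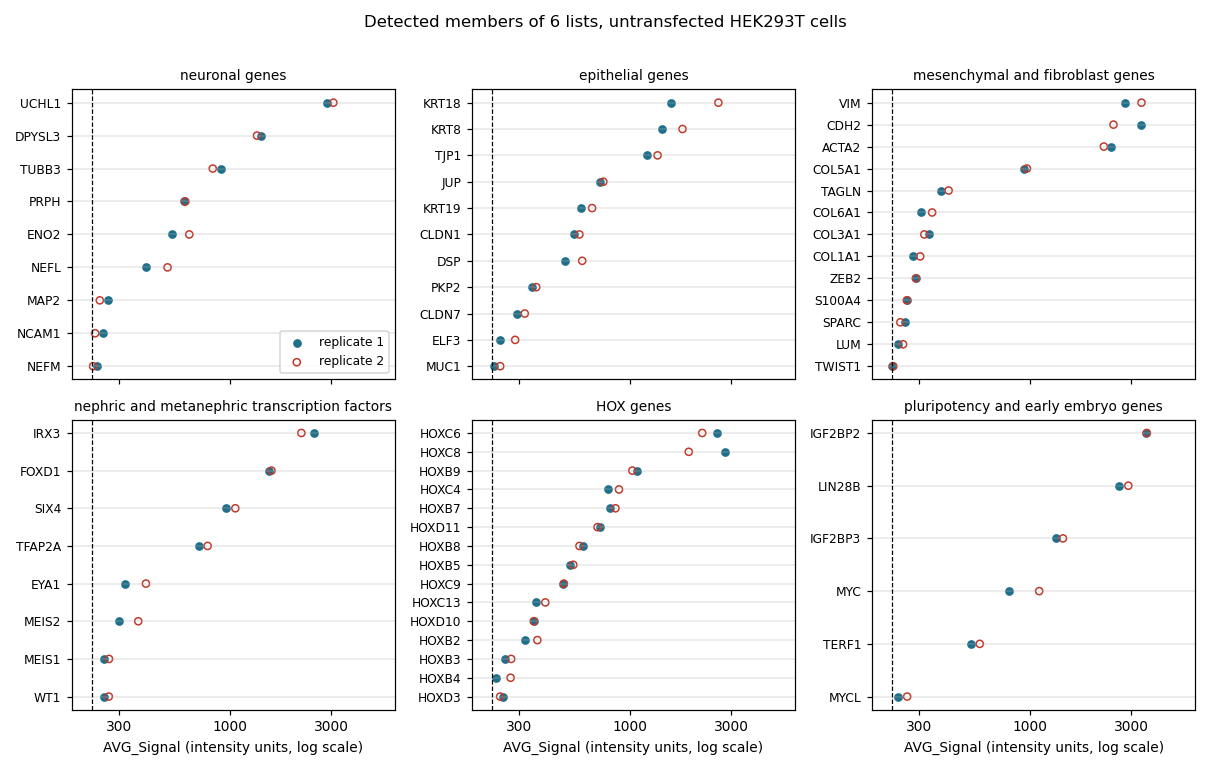
Each row is a detected member of 1 of 6 lists, with its signal on control replicate 1 (filled) and control replicate 2 (open) in intensity units on a log axis, and the dashed line marks the higher of the 2 lowest detected signals, 222.8. The duplicates lie close together for most members, and the lists run from genes at the threshold up to VIM, UCHL1, HOXC6 and LIN28B.

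Most defining genes of blood, vessel and muscle were below detection. The share detected was 8.33% of haematopoietic, 7.14% of endothelial and 7.14% of muscle genes, against 39.3% of all genes. Of 24 haematopoietic genes 2 were detected, CD68, a lysosomal protein, at 345 and 363 and MS4A1, the antigen CD20, at 248 and 269.7 by 1 of its 2 probes, and 22 were not. PTPRC, the surface phosphatase of all white cells, was not detected, nor were CD3D, CD3E, CD4, CD79A, CD14, ITGAM, LYZ, SPI1 and the globins HBB, HBG1 and HBE1. Of 14 endothelial genes 1 was detected, the factor SOX18 at 673 and 603, and PECAM1, CDH5, KDR, TEK, TIE1 and VWF were not. Of 14 muscle genes 1 was detected, the brain-type creatine kinase CKB at 1728 and 1847, and MYOD1, MYOG, DES and the sarcomere genes MYH6, MYH7 and TTN were not. With a detection p-value under 0.05 the endothelial count became 2 and the muscle count became 3.

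Genes of endodermal organs were detected in 4 of 21 cases. FOXA2, a pioneer transcription factor of endoderm and floor plate, gave 1327 and 1242 by 1 of its 3 probes, and its relative FOXA1 gave 677 and 743. CDX2 at 275 and 254 and SOX17 at 228 and 254 were close to the threshold, and with a detection p-value under 0.001 the count of 4 became 2. The products of differentiated liver, gut, lung and pancreas, among them APOA1, TTR, AFP, SERPINA1, VIL1, INS, GCG, SFTPB and SFTPC, were not detected, and ALB was in between.

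Early embryo genes gave a divided picture. Of 26 measured, 6 were detected (23.1%, against 39.3% of all genes), 2 were in between and 18 were not. IGF2BP2 and IGF2BP3, which bind messenger RNAs of the fetal period, gave 3516 and 3550.0 and 1319 and 1429. LIN28B, a repressor of let-7 microRNA maturation, gave 2633 and 2905, MYC, a growth-promoting factor, 799 and 1104 and TERF1, a telomere protein, 525 and 579. MYCL was at 237 and 263, and SALL4 and IGF2BP1 were in between. The pluripotency factors POU5F1, NANOG, SOX2, LIN28A, ZFP42, DPPA4 and PRDM14 were not detected. DNMT3A, DNMT3B, HMGA1, HMGA2, IGF2 and DLK1 were not detected either. With a detection p-value under 0.05 the count of 6 became 11. Of 26 germline and cancer-testis genes 2 were detected, PRAME at 338 and 362 and CTCFL at 257 and 263, and that count became 4 with a detection p-value under 0.05.

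HOX genes, which record position along the body axis, were detected in 15 of 29 cases (51.7%), against 39.3% of all genes. The other 10 of the 39 genes on the list, all of the HOXA cluster, had no probe with 1 symbol and were not analysed here. In the HOXC cluster HOXC6 gave 2574 and 2191, HOXC8 2798 and 1893, HOXC4 787 and 887, HOXC9 481 and 488 and HOXC13 361 and 399, with HOXC8 uneven between the duplicates. In the HOXB cluster HOXB9 gave 1078 and 1026, HOXB7 803 and 854, HOXB8 601 and 578 and HOXB5 524 and 540.4, and HOXB2, HOXB3 and HOXB4 were dimmer, with means of duplicates from 254 for HOXB4 to 343 for HOXB2. In the HOXD cluster HOXD11 gave 720.4 and 703 and HOXD10 352 and 352, and HOXD3 was at 251 and 244. Members detected ran from paralogue group 2 to group 13. Not detected were HOXA2, HOXB1, HOXB6, HOXB13, HOXC5, HOXC10, HOXC11, HOXC12, HOXD1, HOXD4, HOXD8, HOXD9 and HOXD12, and HOXD13 was in between. In the HOXB, HOXC and HOXD clusters some measured genes were detected and others were not.

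Receptor tyrosine kinases were detected in 18 of 55 cases (32.7%), against 39.3% of all genes. RYK, a WNT co-receptor, gave 4981 and 3758 and was detected by both of its probes. FGFR3, a fibroblast growth factor receptor, gave 2659 and 2591, EPHA2, an ephrin receptor, 1277 and 1155, and IGF1R, the receptor of insulin-like growth factor, 802 and 767. LMTK3 gave 518 and 533, EPHA3 416 and 393, EPHA4 293 and 348 and TYRO3 299.7 and 327. ROR2, DDR1, ERBB3, MERTK, KIT, EPHB4, EPHB1, DDR2, LMTK2 and RET completed the detected members, at means under 330. EGFR, ERBB2, ERBB4, INSR, FGFR1, FGFR4, PDGFRA, PDGFRB, KDR, FLT1, AXL, ALK, NTRK2 and NTRK3 were among the 32 not detected, and MET, PTK7, ROR1, FLT3 and EPHA8 were in between.

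G protein-coupled receptors were mostly undetected, with 15 of 121 detected (12.4%, against 39.3% of all genes), 5 in between and 101 not. CXCR4, the receptor of a stromal chemokine, gave 1170.4 and 1376, LGR4, a receptor for R-spondins, 1003 and 1086 and LPAR1, a receptor of lysophosphatidic acid, 1028 and 967. GABBR1, a subunit of the metabotropic GABA receptor, gave 662 and 659, CHRM3, a muscarinic acetylcholine receptor, 534 and 640.1 by both of its probes, and ADORA2B, an adenosine receptor, 516 and 525. ACKR3 gave 361 and 342 and PTGER4, a prostaglandin receptor, 341 and 319.6. LPAR2, PTH1R, MC1R, P2RY11, F2R, OXTR and HRH1 were closer to the threshold. All 5 dopamine receptors, all 5 somatostatin receptors, the opioid receptors OPRM1, OPRD1, OPRK1 and OPRL1, the cannabinoid receptors CNR1 and CNR2, the beta-adrenergic receptors ADRB1 and ADRB3, and the hormone receptors GLP1R, GCGR, TSHR, FSHR and LHCGR were not detected. GABBR2, the partner that GABBR1 needs at the cell surface, was not detected. With a detection p-value under 0.05 the count of 15 became 25.

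Of 41 cytokine and death receptor genes 19 (46.3%) were detected, against 39.3% of all genes. IFNGR2 and IFNGR1, the chains of the interferon gamma receptor, gave 2400.3 and 2435 and 1151 and 1102. TNFRSF21 gave 1274 and 1502, the TRAIL receptor TNFRSF10B 1016 and 960.2 and IL6ST, the signal chain shared by the interleukin 6 family, 853 and 918. IL4R gave 709 and 794, IL13RA1 479 and 678 and CSF2RA 1084 and 890.5. IFNAR1 and IFNAR2, which bind type I interferons, gave 401 and 453 and 269 and 327, and TNFRSF1A, the main TNF receptor, gave 376 and 376. IL6R, IL1R1, IL2RA, IL2RG, IL7R, OSMR, FAS, CD40, TNFRSF1B, EPOR, LEPR and PRLR were among the 21 not detected. IL6ST was thus detected where its partners IL6R and OSMR were not.

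Of 39 nuclear receptors 11 (28.2%) were detected, against 39.3% of all genes. RXRA, the common dimer partner, gave 1099 and 1282, PPARG, a regulator of fat storage, 925 and 966 by 1 of its 3 probes, NR2F6 672 and 772 and NR2C1 611 and 557. NR1H3, an oxysterol receptor, gave 553 and 585, RXRB 530.0 and 606, NR2F1 519 and 617 and the retinoic acid receptor RARA 492 and 454. RORA, RARB and NR2E1 were closer to the threshold. ESR1, ESR2, PGR, NR3C1, VDR, THRA, THRB, PPARA, PPARD and the ESRR genes were not detected, and NR3C2 was in between. THRA lay just outside the threshold, at 222 and 222. NR3C1 was also near it, at 222 and 212, and was detected on all 4 transfected arrays.

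Few ion channel genes of excitable cells were detected. The share was 7.14% for voltage-gated sodium and calcium channels, 11.1% for ligand-gated channels and 20.9% for potassium channels, against 39.3% of all genes. Of 28 subunits of voltage-gated sodium and calcium channels 2 were detected, both auxiliary, CACNA2D3 at 242 and 243 and CACNA2D2 at 239 and 239.6, and every measured pore subunit was undetected. The count of 2 became 7 with a detection p-value under 0.05 and 0 with one under 0.001, and neither member's mean exceeded 260.2, the highest olfactory receptor value. Of 45 ligand-gated channel subunits 5 were detected, CHRNA5 at 343 and 406, GLRB at 364 and 383 and at lower signals HTR3B, CHRNB1 and P2RX2, and that count became 8 and 2 under the same thresholds. All measured AMPA, kainate and NMDA receptor subunits were undetected. Of 43 potassium channel and related genes 9 were detected, among them KCTD12, an auxiliary protein of GABA receptors, at 5197 and 6629, KCNG1 at 406 and 486, KCNK1 at 335 and 333 and KCNMB4 at 310.5 and 329. The delayed rectifiers KCNA1, KCNA3, KCNA5 and KCNB2 and the cardiac channels KCNH2 and KCNQ1 were not detected.

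Channels of calcium release and of mechanical and store signals were detected in 10 of 34 cases (29.4%), against 39.3% of all genes. ITPR3, an intracellular calcium release channel, gave 2333 and 2593, PIEZO1, a mechanosensitive channel, 1777 and 2034 and TRPC1 618 and 574. ASIC1, an acid-sensing channel, gave 472 and 425, TRPV4 363 and 363 and TRPM4 321 and 364. The store sensors STIM1 and STIM2 gave 261 and 279.7 and 280.4 and 297, but the ORAI pore genes ORAI1, ORAI2 and ORAI3 were not detected, nor were TRPV1, TRPA1, TRPM8, TRPM7 and PIEZO2.

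**Figure D4:**
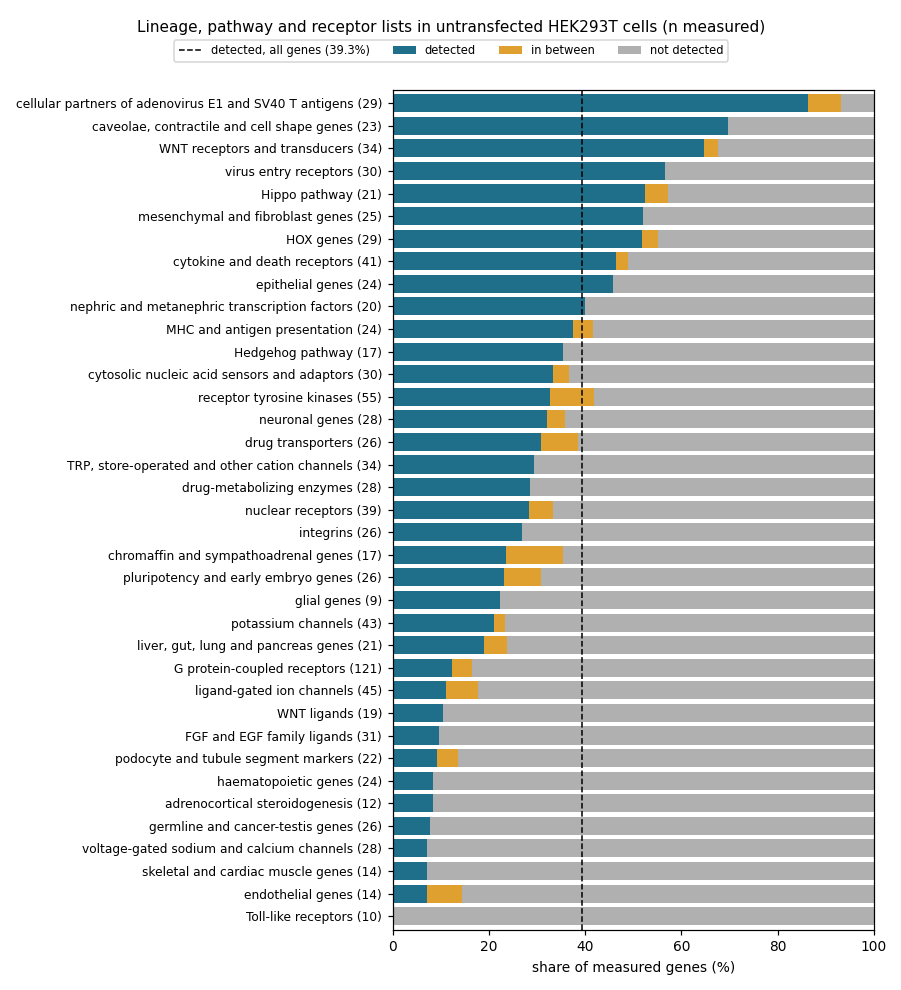
Bars give, for 37 lists of lineage, pathway and receptor genes, the share of measured genes that were detected on both control arrays, in between or not detected, in percent. The number measured stands after each name, and the dashed line marks the 39.3% of all genes. The lists run from 86.2% for the list of partners of adenovirus E1 and SV40 T antigens to 0 of 10 for the Toll-like receptors.

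No Toll-like receptor was detected on either array. These receptors sense microbial products at the cell surface and in endosomes, and for all 10 genes every probe had a detection p-value of 0.01 or more on both arrays, with 1 of 10 detected at a threshold of 0.05. Of 30 cytosolic sensors and adaptors 10 were detected (33.3%), against 39.3% of all genes. EIF2AK2, the kinase that double-stranded RNA activates, gave 2505 and 2801, IRAK1, a kinase below the Toll-like receptors, 2042 and 2637, TBK1, the kinase of IRF3, 939.9 and 969.9 and TICAM1, an adaptor of TLR3, 859 and 994. IRF7 gave 392 and 360.2, IRF3 323 and 363, OAS3 289.7 and 306 and IFIH1, a sensor of long double-stranded RNA, 256 and 278. STING1, the adaptor of the DNA sensing pathway, lay at the threshold with 233 and 238. CGAS, the DNA sensor itself, was not detected, nor were RIGI, MAVS, IFI16, AIM2, NLRP3, PYCARD, CASP1, NOD1, NOD2 and MYD88.

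Antigen presentation genes were detected in 9 of 24 cases (37.5%), close to the 39.3% of all genes. B2M, the shared light chain of class I molecules, gave 1065 and 1459, and the peptide transporter genes TAP1 and TAP2 gave 1073 and 1081 and 276 and 276. PSMB10, an immunoproteasome subunit, gave 649.7 and 755 and HLA-E 473 and 546. HLA-B was read at 281 and 272, and HLA-C, HLA-F and HLA-G were not detected. In class II the peptide editors HLA-DMB and HLA-DMA gave 410.5 and 394 and 362 and 383, while HLA-DRA, HLA-DRB1, CD74 and the master regulator CIITA were not detected. HLA genes vary between people, and a probe can miss an allele, which was not tested.

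In WNT signalling, receptors and transducers were detected more often than ligands. Of 34 receptor and transducer genes 22 were detected (64.7%), and of 19 WNT ligand genes 2 (10.5%), against 39.3% of all genes. AXIN2, a feedback inhibitor that the pathway itself induces, gave 905 and 986, LEF1, a nuclear partner of beta-catenin, 643 and 592 and GSK3B, the kinase that marks beta-catenin for destruction, 604 and 609.6. Of the frizzled receptors FZD9 gave 868 and 799.7, FZD3 769 and 796, FZD6 609 and 522, FZD4 497 and 524, FZD2 427 and 504 and FZD8 440.5 and 381. The co-receptors LRP5 and LRP6 gave 338 and 325 and 251 and 243. WNT5A at 267 and 245 and WNT7A at 224 and 239 were the detected ligands, both with means under 260.2, the highest olfactory receptor value, and with a detection p-value under 0.001 their count became 0. CTNNB1, which encodes beta-catenin, was not detected, nor were APC, TCF7L1, TCF7L2, RNF43 and DKK1.

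Of 31 genes of the FGF and EGF ligand families 3 were detected, a share of 9.68% against 39.3% of all genes, FGF9 at 453 and 393, FGF13, an intracellular member, at 288 and 256 and FGF18 at 249.9 and 230.3, and this count became 6 with a detection p-value under 0.05 and 1 with one under 0.001. FGF2, EGF, TGFA, HBEGF, EREG and NRG1 were not detected. Of 17 Hedgehog pathway genes 6 were detected, among them the co-receptor GAS1 at 771 and 811, the factor GLI3 at 625 and 701 and the transducer SMO at 283 and 312. The ligands SHH, IHH and DHH and the target genes PTCH1 and GLI1 were not detected. Of 21 Hippo pathway genes 11 were detected (52.4%, against 39.3% of all genes). STK4 and STK3, the upstream kinases, gave 3029.7 and 2896 and 1104 and 829, the coactivator YAP1 2030.3 and 1966, its partners TEAD2 and TEAD4 2358 and 2169 and 1527 and 1629, and its target CCN2 805 and 934, while LATS1, LATS2, NF2 and WWTR1 were not detected.

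Receptors and proteases that viruses use for entry were detected in 17 of 30 cases (56.7%), against 39.3% of all genes. CD81, used by hepatitis C virus, has been given above. TFRC, the transferrin receptor, gave 5153 and 5481, EFNB2, an ephrin used by henipaviruses, 3623 and 4032, and CXADR, the receptor of coxsackieviruses and many adenoviruses, 2282 and 2737. CTSL, a lysosomal protease that primes several viral proteins, gave 2427 and 2175 and SLC20A1, a phosphate transporter used by a gibbon retrovirus, 1922 and 2299.8. SCARB1 gave 1568 and 1758, CD55 1306 and 1364 and CD46 731 and 1060.4. CD4, TMPRSS2, DPP4, ANPEP, SLC10A1, CR2, HAVCR1 and AXL were not detected.

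Genes listed as cellular partners of adenovirus E1 and SV40 T antigens were detected in 25 of 29 cases (86.2%), against 39.3% of all genes. The list also holds genes linked to these antigens only indirectly, such as E2F1 and TFDP1, and general machinery such as HSPA8. Families of constitutive machinery were detected at 76.5% to 100%. PPP2CA and PPP2R1A, subunits of the phosphatase that small t antigen binds, gave 9097 and 8996 and 6964 and 8110.3. ELOB, a subunit of ubiquitin ligases, gave 4806 and 6088. HSPA8, the chaperone bound by the J domain of T antigen, gave 4099 and 6046, and TRRAP, a scaffold of acetyltransferase complexes, 4517 and 5111. E2F1, an activator of S phase genes, gave 1227 and 1236 and its dimer partner TFDP1 gave 2543 and 2999. E2F4, a family member known mainly as a repressor with RBL1 and RBL2, gave 871 and 860.5. CREBBP gave 1135 and 1322 and EP300 369 and 374, both acetyltransferases. Within the retinoblastoma family RBL2 gave 437 and 483 and RBL1 lay at the threshold with 225 and 234, while RB1 was not detected. BAX, an effector of apoptosis, was not detected, and CUL7 and BAK1 were in between. The viral genes themselves were not analysed here.

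Of 28 drug-metabolizing genes 8 were detected (28.6%), against 39.3% of all genes. GSTP1, a glutathione transferase of proliferating tissue, gave 14561 and 15824 and AHR, the receptor of dioxins, 7248 and 6642. NQO1, a quinone reductase, gave 871 and 898, CYP1B1 506 and 480.2, CYP2J2 419 and 445 and SULT1A1 359.7 and 400.0. CYP2E1 at 280.1 and 281 and CYP3A5 at 269 and 238 were close to background. CYP1A1, CYP1A2, CYP2B6, CYP2D6, CYP3A4, UGT1A1, UGT2B7, GSTA1 and POR, the reductase that serves all these cytochromes, were not detected. Of 26 drug transporters 8 were detected (30.8%, against the same 39.3%), with the nucleoside carrier SLC29A2 at 633 and 709, ABCC5 at 609.9 and 686, ABCC4 at 625 and 660.3, the carnitine carrier SLC22A5 at 476 and 556 and the efflux pump ABCB1 at 268 and 294. ABCG2, SLCO1B1, SLCO1B3, SLC22A2, SLC22A6 and SLC22A8 were not detected.

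Promoter sequence played no part in the choice of genes, and CG steps, at which DNA can be methylated, were more frequent in promoters of detected than of undetected genes. Promoters were taken from RefSeq on build GRCh38.p14 as 300 bases, from 250 before to 50 after the first listed start, for protein-coding genes. Entries were found for 6163 of 7029 detected genes (87.7%) and for 7212 of 8834 undetected genes (81.6%). The 5 promoters below, picked after their values were seen, show CG-rich and CG-poor sequences, with 2 detected genes of the first 30 ranks before 3 undetected genes. Capitals mark CG, and TATAAA where it lies between 40 and 16 bases before the start.
TUBA1B, detected, chr12:49131346-49131645, minus strand: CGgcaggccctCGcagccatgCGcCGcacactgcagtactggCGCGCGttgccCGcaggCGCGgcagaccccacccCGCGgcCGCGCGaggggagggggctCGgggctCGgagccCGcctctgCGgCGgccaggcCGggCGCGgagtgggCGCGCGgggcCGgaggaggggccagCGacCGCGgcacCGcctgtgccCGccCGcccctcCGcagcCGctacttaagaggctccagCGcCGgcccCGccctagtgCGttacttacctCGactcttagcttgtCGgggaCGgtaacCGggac
EEF1A1, detected, chr6:73520983-73521282, minus strand: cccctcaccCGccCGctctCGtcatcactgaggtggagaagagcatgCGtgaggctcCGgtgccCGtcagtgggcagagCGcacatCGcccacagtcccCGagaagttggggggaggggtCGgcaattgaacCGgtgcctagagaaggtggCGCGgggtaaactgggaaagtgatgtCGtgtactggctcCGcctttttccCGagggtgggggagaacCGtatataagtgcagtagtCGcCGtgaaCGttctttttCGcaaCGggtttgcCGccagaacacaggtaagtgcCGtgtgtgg
WNT3, not detected, chr17:46818643-46818942, minus strand: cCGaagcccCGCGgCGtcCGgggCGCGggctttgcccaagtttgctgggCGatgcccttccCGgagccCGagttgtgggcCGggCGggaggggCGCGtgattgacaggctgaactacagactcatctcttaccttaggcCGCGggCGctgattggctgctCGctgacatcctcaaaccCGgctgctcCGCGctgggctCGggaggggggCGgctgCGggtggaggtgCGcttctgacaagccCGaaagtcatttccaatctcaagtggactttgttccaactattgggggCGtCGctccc
CYP3A4, not detected, chr7:99784135-99784434, minus strand: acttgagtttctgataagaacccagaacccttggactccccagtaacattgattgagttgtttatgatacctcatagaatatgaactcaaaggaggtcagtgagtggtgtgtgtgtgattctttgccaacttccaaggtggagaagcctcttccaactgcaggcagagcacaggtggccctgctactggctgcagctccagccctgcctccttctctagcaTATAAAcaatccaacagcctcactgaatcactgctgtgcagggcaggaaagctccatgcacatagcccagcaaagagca
AFP, not detected, chr4:73435971-73436270, plus strand: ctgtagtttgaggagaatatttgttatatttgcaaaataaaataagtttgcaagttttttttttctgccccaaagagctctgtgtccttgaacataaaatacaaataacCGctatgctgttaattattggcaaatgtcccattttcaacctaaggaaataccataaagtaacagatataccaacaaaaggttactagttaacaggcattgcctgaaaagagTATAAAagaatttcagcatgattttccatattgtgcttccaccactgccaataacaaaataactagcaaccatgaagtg
TUBA1B and EEF1A1 held 43 and 24 CG steps. WNT3, an undetected ligand of the WNT list, held 28, whereas CYP3A4, a liver cytochrome, held 0 and AFP, the fetal serum protein, held 1, and both of the last carry TATAAA.

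Detected genes had a median of 27 CG steps per promoter with quartiles of 20 and 35, and undetected genes had a median of 15 with quartiles of 4 and 29. Few detected genes lacked CG, since 4.06% had under 5 steps, against 25.7% of undetected genes. Of the 2181 genes with 0 to 4 steps 11.5% were detected, of the 1362 with 5 to 9 steps 18.6%, and of the 2314 with 10 to 19 steps 44.5%. Above that the share was level, at 58.4% for 20 to 29 steps, 57.7% for 30 to 39 and 57.1% for 40 or more. With the detected genes split by rank into 4 equal classes, the median was 28 in the brightest class, 27 in both of the next and 25 in the dimmest. TATAAA in the window before the start, on the strand of the gene, was found in 1.64% of detected and 5.45% of undetected promoters, and in 3.61% of all promoters with an entry. Among detected genes of the first 100 ranks with an entry the share was 7.23%, which is 6 of 83. On either strand anywhere in the 300 bases it was found in 5.52% of detected and 12.8% of undetected promoters.

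Undetected genes were of both kinds. The 14 undetected WNT ligands with an entry had a median of 32 CG steps, and the 22 undetected nuclear receptors one of 23.5, which is within the quartiles of detected genes. The 15 undetected drug-metabolizing genes had a median of 3 and the 14 undetected drug transporters one of 2.5. TATAAA lay in the window before the start of 7 of those 15 drug-metabolizing genes and of 0 of the 14 drug transporters. These medians describe small lists and were not tested.

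**Figure D5:**
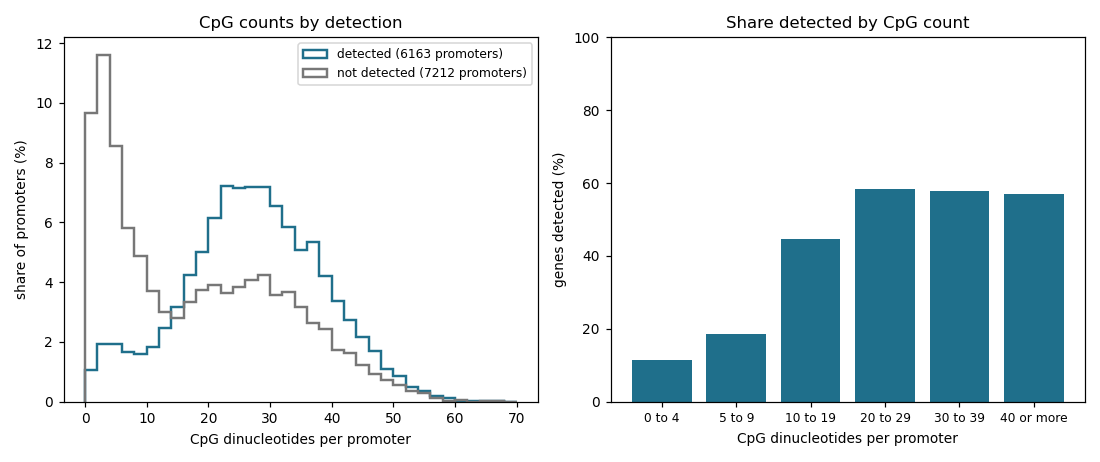
The left panel gives the distribution of CG steps per 300-base promoter, as a share in percent of 6163 detected and 7212 undetected genes. The right panel gives the share of genes detected in percent for 6 classes of CG count, which is 11.5% at 0 to 4 steps and between 57.1% and 58.4% from 20 steps upward.

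Detected genes were found on every chromosome counted, which were the 22 autosomes and X. Among these the share detected was highest on chromosome 10 with 314 of 723 genes (43.4%) and lowest on chromosome 21 with 73 of 230 (31.7%), and chromosome 19 had 444 of 1274 (34.9%). The X chromosome had 268 of 718 (37.3%). Over all genes measured the share was 39.3%, and differences between chromosomes were not tested. Whether the gene families on a chromosome bear on its share was not tested.

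The threshold itself divides genes of nearly equal signal. Just inside it lay PLXNA1 at 223 and 225, MOB2 at 223 and 225, CHMP4C at 222 and 225 and KIR2DL5B at 225 and 224, beside IL21. Just outside it lay PAX5 at 220.0 and 221, KLK6 at 219.8 and 221, VN1R4 at 219.8 and 221 and MAGEA4 at 219 and 222, beside THRA. On each array every gene detected lay above every gene not detected here, as the threshold sets, and the signals of all 10 fell between 218.9 for MAGEA4 and 225.5 for CHMP4C.

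The calls made on the control arrays were repeated on most of the 4 transfected arrays, which had no part in them. Of 7379 genes detected in the controls 6823 (92.5%) were detected on all 4, and 59 on 0 of 4. Those 59 were dim, with mean control signals from 224.1 to 276.7, and included JAG2, a Notch ligand, at 275 and 278, HOXB3 at 257 and 275, WNT5A, SPARC, a matrix protein, at 257 and 244, and INSM1. Of 10766 genes not detected in the controls 10055 (93.4%) were detected on 0 of the 4 arrays and 132 (1.23%) on all 4. Among these 132 were MDM2, the ubiquitin ligase of p53, at 212 and 209 and NR3C1, the glucocorticoid receptor, at 222 and 212. The cytokine TNF gave 185 and 178 and the NF-kB inhibitor TNFAIP3 204 and 215. MX1, an interferon-induced antiviral protein, gave 213 and 222. These are control signals, for which the thresholds were 221.8 and 222.8. The 132 also held genes such as ACTR8, COG5 and ZNF140. Levels of these genes were not compared between groups here, so the counts show how often a call repeats and not that a gene changed.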

How the data were processed

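Total RNA of 6 HEK293T samples was amplified and labelled with biotin for Illumina Human-6 arrays, per the labels' protocols, and BeadStudio gave the values, per the submitters' processing notes, for which the sources used here name no version. The deposited scanner intensity is a mean over the beads of a probe, with no normalization and no background subtracted, and bead numbers and bead standard errors stand beside it. A detection p-value stands beside each intensity, per the file headers; in BeadStudio such a deposited p-value sets a probe against negative control beads of its array. The authors' series table holds processed intensity values. They differ from the scanner values of control replicates 1 and 2 by a subtracted background of 153.2 and 151.0 and 1 scaling factor per array. They served only as an alternative.

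Of 48701 probes, 23687 had 1 gene symbol in the platform annotation, 35 had several and 24979 had none. Of the first, 23651 were matched to RefSeq by gene ID, which changed 0 symbols. Only probes with 1 symbol were used, and 1345 of the 9073 probes detected on both control arrays were left out by this. A gene was called detected where 1 of its probes or more had p under 0.01 on both arrays, and undetected where no probe did on either. Several probes existed for 3419 genes, of which 1332 had a detected and an undetected probe.

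Named genes were the 30 highest means, up to 8 detected members of each list by mean, the undetected members by name, the 5 genes on each side of the threshold and the 5 with the largest difference between duplicates. Some further members of lists, the families and the genes named as outside the machinery were chosen after values were seen. Members and lists were chosen with earlier results of these data known. No group was tested against another, so no p-value is given other than detection. Promoters were taken for protein-coding genes outside chromosomes 8 and Y. The calling was tested on simulated data whose levels lay mostly far above background, so this did not check calls near the threshold. Python 3.11.15, pandas 2.3.3, R 4.3.3 and limma 3.58.1 (neqc) were used. Alternatives were other thresholds, 1 array in place of both, every probe of a gene, each replicate left out, neqc, and the authors' processed values.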

Additional observations from a re-analysis of the deposited data

How the results depend on the processing

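The count of detected genes (7379) stayed within 1.5 times under every alternative tried. It was 8693 with a detection p-value under 0.05, 6504 with one under 0.001, 8008 with detection on 1 array or more, and 5995 with detection of every probe of a gene. Leaving out 1 replicate gave 7638 and 7754. Chosen after seeing the data, a mean above the brightest olfactory receptor left 6513. The count of undetected genes (10766) ranged from 9073 to 11847. Of the 30 highest ranks, 30 were kept with neqc and with the authors' processed values, 24 with the median of a gene's probes, and 28 with either replicate left out. The median difference between duplicates was 0.10 on the log2 scale, 0.14 with neqc and 0.14 with the authors' processed values, where background is subtracted. The difference in median CG steps between detected and undetected promoters was 12, 11 with a detection p-value under 0.001 and 11 with the listed start richest in CG, which was also chosen after seeing the data. The share of detected genes called again on all 4 transfected arrays was 92.5%, and 90.7% with a detection p-value under 0.05. Lists whose counts moved by over 1.5 times are given with those counts in the text. No paired analysis was possible because no comparison between groups was tested. Signal over background limits genes near 225 units, where the duplicates decide single calls.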
